A study of Mus musculus with 9 samples.

Results

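Accessible chromatin was examined at 43 mouse genes for chromatin remodelers, the protein machines that use ATP to slide, evict or exchange nucleosomes. The genes were chosen by name, as 27 subunits of the SWI/SNF complexes and 16 genes of the CHD, ISWI and INO80 families, and the accessible regions that the authors' list assigned to each were counted. Of the 43 genes, 26 had at least 1 assigned region, with 47 distinct regions among the 17164 of the list. The study made ATAC-Seq libraries, in which the Tn5 transposase cuts into open DNA, from pharyngeal mesoderm and hearts dissected at E8.75 (6 somites). It had 3 libraries each from wild-type embryos, from Isl1-/- embryos, which lack the LIM-homeodomain factor Isl1, and from Isl1Cre+/- Brg1fl/fl embryos, in which Cre is driven from the Isl1 locus and the remodeler ATPase Brg1 can be deleted only in cells with a history of Isl1 expression. The labels do not say whether a library came from a single embryo or from a pool, while the study's methods count embryos for each genotype and name no pool for this assay. The list held the regions common to the 3 wild-type libraries, so only wild-type chromatin is described and the mutant libraries were not analysed here. It gave positions and no heights, and the sequencing depth is unknown, so no value has a replicate error and no test between groups was made.

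SWI/SNF complexes are built around an ATPase, either Brg1 (Smarca4) or Brm (Smarca2), and take up alternative subunits from small gene families, so that BAF, PBAF and non-canonical BAF complexes differ in composition. Brg1, Baf60c (Smarcd3), Baf180 (Pbrm1), Baf45c (Dpf3) and Baf250a (Arid1a) are known for roles in heart development. CHD proteins carry chromodomains, and loss of CHD7 function causes CHARGE syndrome, which includes heart defects. ISWI complexes space nucleosomes, and INO80-type complexes slide nucleosomes or exchange histone variants.

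Sequences of 6 regions are given as examples. Those of Smarca4 and Dpf3 come from CpG-rich DNA at gene starts. The others come from regions beyond 10 kb from the start used by the list, of which the Chd9 one covers a further annotated start. They do not stand for all regions, since some distal regions were CpG-dense and some start regions were not. Each is 300 bases of the forward strand of mm9 (NCBIM37), read 5′ to 3′, from the region of the gene named, and holds no annotated exon. Capitals mark matches, on either strand, to 12 short motifs. Those searched at gene starts were GGGCGG for SP/KLF factors, CCGGAAG for ETS factors, GCGCATGC for NRF1, TGACGTCA for the cyclic AMP response element, AAGATGGC for YY1 and CCAAT for NFY. Those searched in distal sequence were NGATAA for the GATA factors, CTAATG for Isl1, TAATTA for other homeodomain factors, GGAATG for TEAD factors, GGTGTG for T-box factors and CACTTAA for Nkx2-5. Matches to different motifs may overlap.
Smarca4, upstream of the start, chr9:21420313-21420612: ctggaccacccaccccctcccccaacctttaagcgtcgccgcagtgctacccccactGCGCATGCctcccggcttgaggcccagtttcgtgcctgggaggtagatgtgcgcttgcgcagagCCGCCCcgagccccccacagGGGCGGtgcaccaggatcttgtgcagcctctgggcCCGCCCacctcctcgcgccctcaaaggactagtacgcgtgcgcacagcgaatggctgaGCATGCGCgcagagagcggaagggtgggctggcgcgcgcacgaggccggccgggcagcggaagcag
Dpf3, upstream of the start used by the list, chr12:84828687-84828986: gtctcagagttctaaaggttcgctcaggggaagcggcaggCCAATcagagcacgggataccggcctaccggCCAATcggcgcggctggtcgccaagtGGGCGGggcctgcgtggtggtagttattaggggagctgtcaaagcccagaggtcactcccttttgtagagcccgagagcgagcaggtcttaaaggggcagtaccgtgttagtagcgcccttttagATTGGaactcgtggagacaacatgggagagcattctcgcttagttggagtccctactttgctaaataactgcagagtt
Arid1b, intronic, chr17:5058346-5058645: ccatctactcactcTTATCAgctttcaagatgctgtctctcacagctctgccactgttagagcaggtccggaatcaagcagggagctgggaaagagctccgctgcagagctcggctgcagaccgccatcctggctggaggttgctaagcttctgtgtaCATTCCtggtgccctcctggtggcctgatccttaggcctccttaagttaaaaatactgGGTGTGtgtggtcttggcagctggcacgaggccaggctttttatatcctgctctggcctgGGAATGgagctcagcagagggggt
Chd6, distal, in Ptprt, chr2:161530981-161531280: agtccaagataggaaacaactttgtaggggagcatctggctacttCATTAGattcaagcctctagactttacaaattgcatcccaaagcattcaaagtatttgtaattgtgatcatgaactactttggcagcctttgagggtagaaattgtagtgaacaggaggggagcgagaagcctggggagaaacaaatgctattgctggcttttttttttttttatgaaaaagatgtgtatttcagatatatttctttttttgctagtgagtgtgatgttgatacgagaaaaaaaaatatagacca
Chd7, distal, chr4:8574869-8575168: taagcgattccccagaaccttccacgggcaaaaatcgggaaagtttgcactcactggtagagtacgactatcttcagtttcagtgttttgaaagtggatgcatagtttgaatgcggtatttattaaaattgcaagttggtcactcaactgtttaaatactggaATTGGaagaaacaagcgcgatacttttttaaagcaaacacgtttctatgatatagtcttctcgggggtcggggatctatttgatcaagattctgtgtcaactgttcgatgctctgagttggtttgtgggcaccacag
Chd9, beside a downstream start, chr8:93478647-93478946: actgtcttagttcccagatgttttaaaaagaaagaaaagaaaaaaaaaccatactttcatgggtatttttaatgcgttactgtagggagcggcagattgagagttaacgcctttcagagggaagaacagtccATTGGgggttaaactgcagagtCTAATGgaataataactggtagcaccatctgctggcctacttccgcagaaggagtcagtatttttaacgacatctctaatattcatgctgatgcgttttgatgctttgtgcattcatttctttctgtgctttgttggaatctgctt

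The Smarca4 stretch held 28 CpG dinucleotides, 3 matches to GGGCGG and 2 to GCGCATGC. The Dpf3 stretch held 17 CpG dinucleotides, 3 matches to CCAAT and 1 to GGGCGG. The Arid1b stretch held 5 CpG dinucleotides, 2 matches to GGAATG, 1 to NGATAA and 1 to GGTGTG. The Chd6 stretch was AT-rich, with a GC content of 36.3%, 2 CpG dinucleotides and 1 match to CTAATG. The Chd7 stretch held 11 CpG dinucleotides and 1 match to CCAAT. The Chd9 stretch held 6 CpG dinucleotides and 1 match each to CTAATG and CCAAT. A match is a description of the letters and no site of binding.

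An assigned region was listed for 26 of the 43 remodeler genes (60.5%, 95% Wilson interval 45.6 to 73.6), against 49.3% of 21031 protein-coding genes. A region with its center within 1 kb of the assigned transcription start site (TSS) was listed for 21 of them (48.8%, 34.6 to 63.2), against 40.6% of coding genes. Intervals here and below cover only the number of genes counted. A total of 7 genes had 2 or more regions (16.3%, 8.12 to 30.0), against 12.9% of coding genes, and 7 had a region more than 10 kb from the TSS (16.3%, 8.12 to 30.0), against 15.2%. Each of these 4 intervals included the value of all coding genes.

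**Figure D1:**
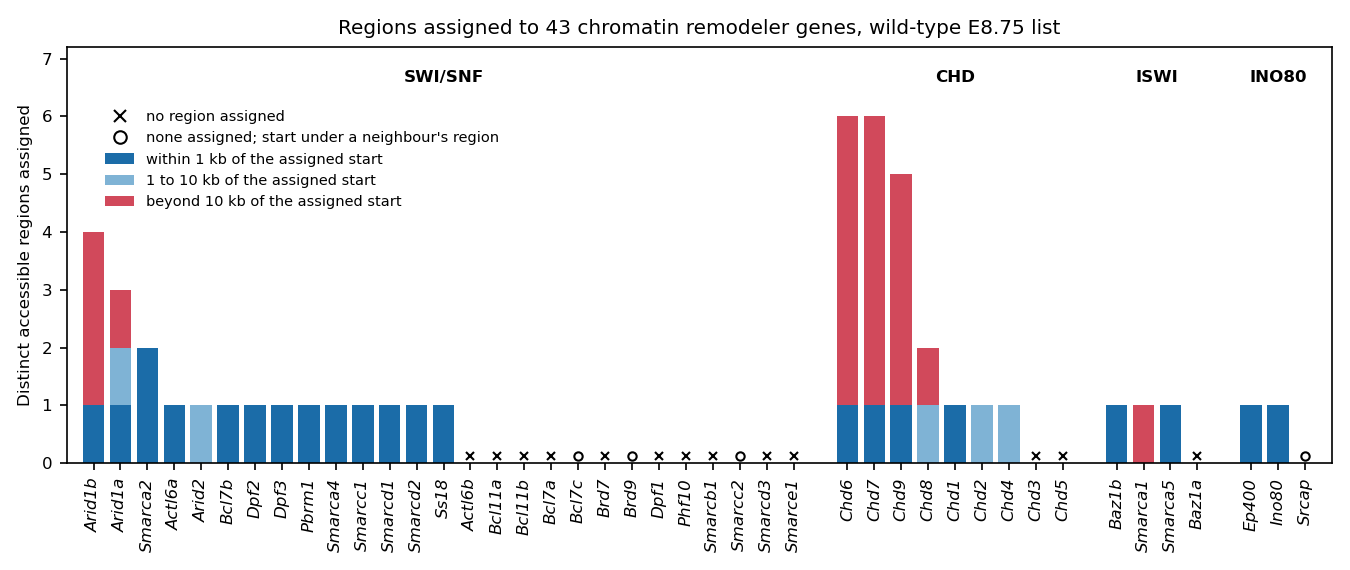
Number of distinct accessible regions (y axis) assigned to each of the 43 genes (x axis), grouped by family and colored by distance from the assigned start. Chd6 and Chd7 had 6 regions each and Chd9 had 5, most of them beyond 10 kb, whereas most SWI/SNF genes with a region had 1 at the start. Crosses mark genes with no assigned region, and open circles mark 4 such genes whose start lay under a region assigned to a neighbor.

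SWI/SNF regions lay mostly at gene starts, as did those of the ISWI genes (2 of 3) and INO80 genes (2 of 2), whereas 15 of the 22 CHD regions lay beyond 10 kb, all of them at Chd6 to Chd9. A region was assigned to 14 of 27 SWI/SNF genes (51.9%, 34.0 to 69.3) and to 12 of 16 CHD, ISWI and INO80 family genes (75%, 50.5 to 89.8). The shares with a region within 1 kb were 13 of 27 (48.1%) and 8 of 16 (50.0%). A region beyond 10 kb was assigned to 2 of 27 SWI/SNF genes (7.41%, 2.06 to 23.4) and to 5 of 16 others (31.2%, 14.2 to 55.6). SWI/SNF genes had 20 regions, of which 70.0% lay within 1 kb and 20% beyond 10 kb, and the others had 27 regions, of which 29.6% and 59.3% did so. Over all regions of the list these shares were 52.9% and 39.3%, between those of the 2 groups. The difference between SWI/SNF and the others in the share with a region beyond 10 kb was -23.8 percentage points (95% interval -48.8 to -0.5), and -17.6 (-42.7 to 4.2) with a limit of 25 kb. This interval counts genes, which are not replicates, and is no test. The median gene span was 31.2 kb for SWI/SNF and 75.6 kb for the others, and its part in the difference was not tested. The difference in assigned regions depended on how regions were tied to genes. Counting any region over the gene body or within 1 kb of an annotated start, whatever gene it named, gave 59.3% for SWI/SNF and 62.5% for the others. This count added genes whose start lay under a neighbor's region, and also dropped genes whose regions lay only outside the annotated gene body. The parts of these changes were not separated.

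Both SWI/SNF ATPase genes had accessible starts. The region of Smarca4, which encodes Brg1, was 1139 bp wide (chr9:21420065-21421203) with its center 21 bp downstream of the TSS, in a UTR exon. It was of modest size, wider than 31.7% of the regions within 1 kb of a TSS, with a GC content of 66.2% and 8.87 CpG per 100 bp. It was the single region assigned to Smarca4, although the gene spans 88.1 kb. Smarca2 had 2 regions, at 2 annotated starts of the gene. The upstream one (chr19:26678868-26679949, 1082 bp) lay 242 bp before its start and held 7.30 CpG per 100 bp. The other (chr19:26821762-26823088, 1327 bp) lay 230 bp before a start within the gene and held 2.86 CpG per 100 bp. The GC content of these Smarca2 regions was 61.0% and 49.4%, so the downstream start was accessible in DNA of lower CpG density.

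Among the 7 genes for scaffold subunits of SWI/SNF complexes, 3 had an assigned region and each lay at the start. Smarcc1 (Baf155) had a region of 1366 bp with its center at 62 bp, Smarcd1 (Baf60a) one of 1191 bp at 95 bp, and Smarcd2 (Baf60b) one of 1314 bp at -12 bp. Smarcd3, whose product Baf60c is the family member known from the heart, had none, and the nearest region to its start, 24478 bp away, was assigned to Abcf2. The Smarcd family thus differed at the start in this list, with Smarcd1 and Smarcd2 open and Smarcd3 not listed. All 3 starts were CpG-rich, with 8.19, 10.1 and 8.89 CpG per 100 bp. The study itself reported lower chromatin accessibility at Smarcd3 in Isl1-/- embryos of this stage. The missing entry therefore does not show that Smarcd3 lacked accessible chromatin. Smarcb1 (Baf47) and Smarce1 (Baf57), which encode subunits present as single genes, had no region either, and the nearest listed regions lay 28242 bp and 155147 bp from their starts. Smarcc2 (Baf170) had no assigned region, yet a region of 1960 bp (chr10:127894961-127896920) covered its start, with the center 352 bp upstream, and was assigned to the microRNA gene Mir8105. Of the actin-related pair, Actl6a (Baf53a) had a region of 1637 bp at 198 bp, and Actl6b (Baf53b), which replaces Actl6a in neurons, had none within 20141 bp of a start.

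Of the 20 SWI/SNF regions, 9 were assigned to BAF-specific subunits, at 4 of these 5 genes. Arid1b, which encodes Baf250b, had 4 regions. The region at its start was 2541 bp wide (chr17:4993608-4996148), wider than 97.3% of the regions within 1 kb of a TSS, and held 10.7 CpG per 100 bp. The other 3 lay 86706 bp upstream (1159 bp wide, intergenic), 63422 bp downstream (725 bp, intronic) and 195128 bp downstream (1344 bp, intronic). They differed in base composition: the upstream one had 8.80 CpG per 100 bp, and the intronic ones 1.66 and 3.27.

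Arid1a, which encodes Baf250a, had 3 regions. The region nearest to the assigned TSS (chr4:133309692-133310901, 1210 bp) lay 770 bp upstream of it, in an intron by the annotation used here. A second of 1525 bp began 1307 bp further on (chr4:133312209-133313733, center -3445 bp), covered another annotated Arid1a start and was centered 287 bp upstream of that start. The third lay more than 10 kb from the assigned TSS.

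The Dpf genes encode the alternative Baf45 subunits, which bind modified histones. Dpf2 had a region of 904 bp at 103 bp and Dpf1 had none, with the nearest region 65498 bp from a start. Dpf3 had a region of 1292 bp (chr12:84828017-84829308) with its center 24 bp from the start that the list used, a GC content of 56.3% and 6.81 CpG per 100 bp. The annotation used here did not place a Dpf3 start there: its nearest one was 376780 bp away, so the start of Dpf3 rests on the list alone. Of the Dpf2 region, 11.3% of the 31-base words occurred elsewhere in the genome, and none of the Dpf3 region.

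Among the PBAF-specific genes, Arid2 and Pbrm1 had 1 region each, and Phf10 and Brd7 had none. The Arid2 region was the widest of all 47, at 3149 bp (chr15:96115351-96118499), and 98.2% of the regions between 1 and 10 kb were narrower. Its center lay 1028 bp upstream, just past the limit of 1 kb, but it reached over an annotated Arid2 start. It was also written 2 times in the list, which can occur when a region overlaps several peaks of another library. The Pbrm1 region was narrow, at 1069 bp (chr14:31831935-31833003), and held the starts of Pbrm1 and of the neighboring Gnl3, so accessibility at the starts of these genes cannot be told apart. The nearest region to a Phf10 start, 17904 bp away, was assigned to 1600012H06Rik, and that to Brd7, 136535 bp away, to Papd5. Brd9, the bromodomain gene of non-canonical BAF, had no assigned region, but a region of 1270 bp (chr13:74074554-74075823) assigned to Trip13 covered its start with the center 98 bp upstream.

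Of the 6 accessory genes, Ss18 and Bcl7b had a region at the start, of 1787 bp at 281 bp and of 923 bp at 288 bp. Bcl7c had none assigned, and its start lay under a region of 1497 bp (chr7:134851344-134852840) assigned to Mir762, 27 bp from the center. Bcl7a had its nearest region 50161 bp away, at Mlxip. Bcl11a and Bcl11b, transcription factors that also join BAF complexes in lymphoid and neural cells, had none within 183012 bp and 175672 bp. The Bcl7 genes therefore split as the Smarcd genes did, with Bcl7b and Bcl7c open and Bcl7a not listed.

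The CHD genes held 22 of the 47 regions, and 19 of these belonged to Chd6, Chd7, Chd8 and Chd9, which form a class by their domains. All 4 had a region, with a mean of 4.75 (SD 1.89 over these 4 genes), against 1.43 (SD 0.94) over the 14 SWI/SNF genes with a region. Over all coding genes with a region the mean was 1.47 (SD 1.1), close to that of the SWI/SNF genes. Of the 19, 15 lay beyond 10 kb and 10 of those were upstream of the start used by the list. The 10 include a Chd9 intronic region at -23616 bp, whose listed start lay 22799 bp from the nearest annotated Chd9 start. Among SWI/SNF genes, Arid1b had the most regions, with 4.

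Chd7, the gene of CHARGE syndrome, had 6 regions. The region at its start was 1402 bp wide (chr4:8616907-8618308, center 54 bp) and the most CpG-dense of all 47, with 14.7 CpG per 100 bp, and its central 300 bases held a match to TGACGTCA, the cyclic AMP response element. Upstream lay regions of 790 bp at -23526 bp and of 2353 bp at -42534 bp (chr4:8573843-8576195), the latter wider than 99.2% of the regions beyond 10 kb and with 6.20 CpG per 100 bp. Downstream lay regions of 854 bp at 160346 bp, in a Chd7 intron, and past the gene's end of 1134 bp at 231370 bp and of 874 bp at 264174 bp. These 3 had 1.37 to 3.17 CpG per 100 bp. Chd7 thus had open regions on both sides of its start, whereas the distal regions of Chd6 were all upstream.

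Chd6 also had 6 regions, all at or upstream of its start. The start region was 1929 bp wide (chr2:160933890-160935818, center -32 bp), with 7.26 CpG per 100 bp. The other 5 lay between -57706 bp and -596308 bp and had 0.666 to 2.68 CpG per 100 bp. A pair at -230278 bp and -232680 bp was separated by 1118 bp. The farthest one (chr2:161530218-161532043, 1826 bp), in an intron of Ptprt, was written 4 times in the list and was wider than 97% of the regions beyond 10 kb. Which gene this region serves was not tested. In the region at -57706 bp, 12.6% of the 31-base words occurred elsewhere in the genome.

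Chd9 had 5 regions that the list measured from 2 different starts. The start region was 1419 bp wide (chr8:93351868-93353286, center -157 bp) with 3.81 CpG per 100 bp, the lowest density of the CHD, ISWI and INO80 start regions. A region of 1157 bp, 22998 bp from the start used for it, covered a further annotated Chd9 start and had 1.82 CpG per 100 bp. An intronic region of 1968 bp at -23616 bp held the start of Gm6658 and had 9.60 CpG per 100 bp. The others lay in an intron at 33159 bp (1793 bp wide) and upstream at -87312 bp (1141 bp).

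Chd8 and Chd4 had regions near but not at the start. Chd8 had 2, of 971 bp at -7044 bp and of 1355 bp at -20227 bp, and Chd4, the main ATPase of the NuRD complex, had 1 of 1302 bp at -7100 bp (chr6:125038249-125039550). No listed region lay closer to an annotated start than 6825 bp for Chd8 and 7100 bp for Chd4. The other NuRD-type ATPase genes, Chd3 and Chd5, had no region, with the nearest ones 32781 bp (Cntrob) and 12828 bp (Rpl22) away. Chd1 had a wide region at its start, of 2418 bp at 230 bp. The region of Chd2 (chr7:80682191-80683438, 1248 bp) lay 3818 bp downstream of the assigned TSS and covered another annotated Chd2 start.

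**Figure D2:**
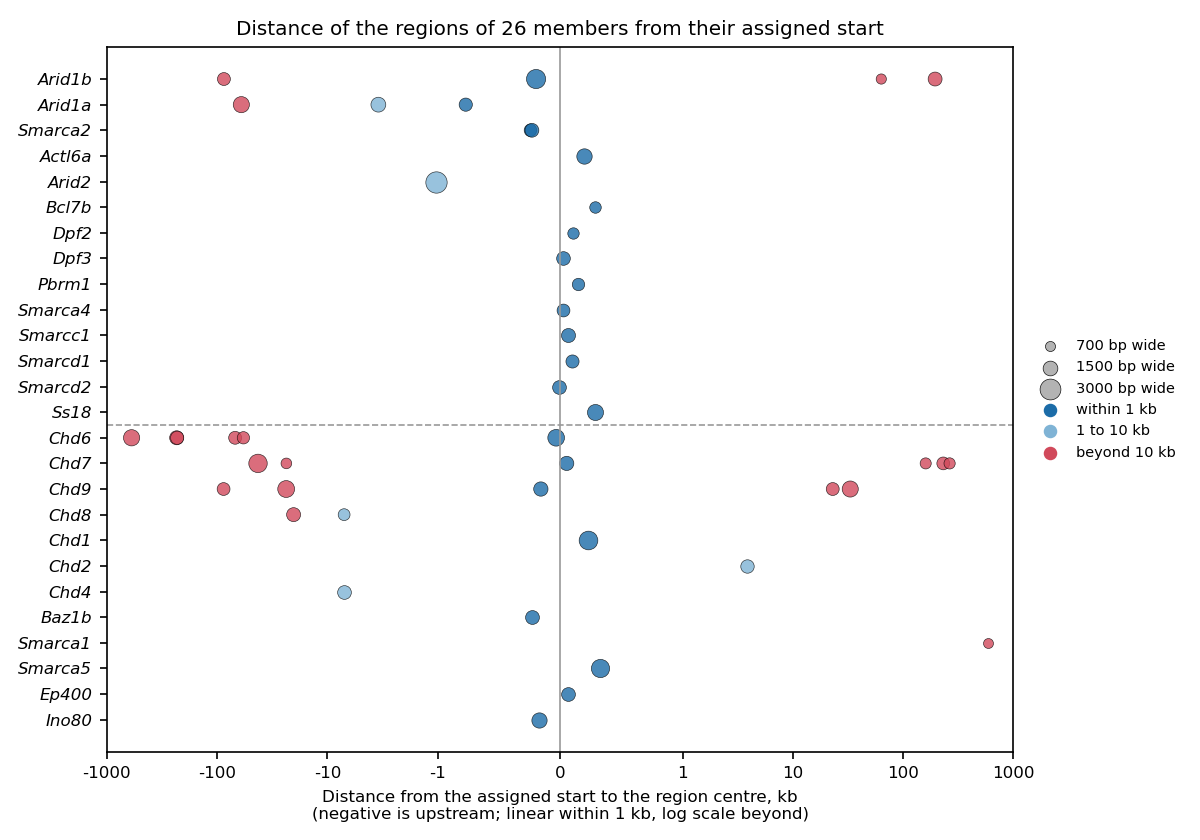
Distance in kb (x axis, linear within 1 kb and log scale beyond, negative is upstream) from the assigned start to the center of each of the 47 regions, for the 26 genes with a region (y axis). Circle area grows with region width, and the dashed line separates SWI/SNF genes above from the others below. Of the 47 circles, 22 lie within 1 kb of the start, and the 20 beyond 10 kb belong to Arid1b, Arid1a, Chd6, Chd7, Chd9, Chd8 and Smarca1.

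Of the ISWI ATPase genes, Smarca5 (Snf2h) had a wide region at its start, of 2308 bp (chr8:83261876-83264183) at 329 bp. In that region 24.9% of the 31-base words occurred elsewhere in the genome, the highest share of the 47, and the part of repeated sequence in its width was not tested. Smarca1 (Snf2l), on the X chromosome, had only a region of 689 bp at 588677 bp (chrX:44656708-44657396), the narrowest of the 47, with 0.290 CpG per 100 bp. The nearest region to a Smarca1 start, 19603 bp away, was assigned to Ocrl. Of the accessory genes, Baz1b (Wstf) had a region of 1328 bp at -227 bp and Baz1a (Acf1) had none within 110111 bp. Baz1b and Bcl7b are neighbors on chromosome 5, and their regions were 17311 bp apart. Of the INO80-type ATPase genes, Ino80 had a region of 1616 bp at -176 bp and Ep400 one of 1319 bp at 67 bp. Srcap had none assigned, and a region of 1891 bp (chr7:134655057-134656947) assigned to 1700008J07Rik covered its start.

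A total of 17 genes had no assigned region, 13 of SWI/SNF and 4 of the other families. For 4 of them (Smarcc2, Brd9, Bcl7c and Srcap) a region assigned to a neighbor covered the start. For the other 13 the nearest region of any gene lay between 12828 bp (Chd5) and 183012 bp (Bcl11a) from a start. By the annotated starts, whatever gene the list named, a region covered a start of 26 genes (60.5%, 45.6 to 73.6), against 43.4% of 22219 annotated coding genes, and 25 genes had a region center within 1 kb of a start (58.1%, 43.3 to 71.6), against 43.9%. The interval of the first count lay above the value of all coding genes, and that of the second included it. These intervals count genes, which are not replicates, and are no test. The first count was 16 of 27 SWI/SNF genes (59.3%) and 10 of 16 others (62.5%), with intervals of 40.7 to 75.5 and 38.6 to 81.5. Since a region had to be found in all 3 libraries, a missing region does not show that a start was closed.

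Regions of the remodeler genes were of ordinary width at starts and somewhat wider away from them. At starts, the median width of the 22 regions was 1327.5 bp (range 904 to 2541), against 1294 bp over all 9083 regions of this kind, and 14 of the 22 were above that median. The median was 1251 bp for SWI/SNF and 1517.5 bp for the others. The 20 regions beyond 10 kb had a median width of 1158 bp (689 to 2353), against 937 bp over 6740 such regions, and 15 of the 20 were above that median. The 20 include Chd9 regions of 1968 bp and 1157 bp that held annotated starts. Width cannot be given an error from a common list.

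**Figure D3:**
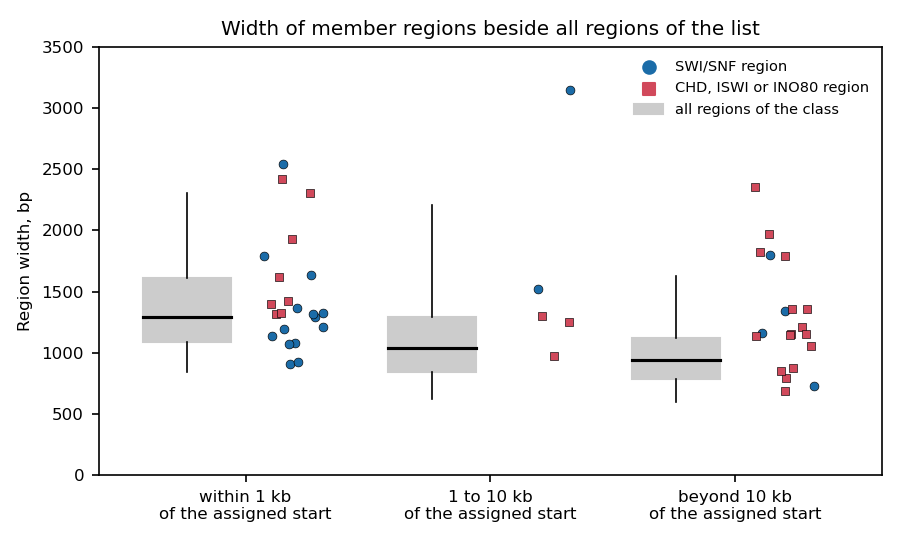
Width in bp (y axis) of the 47 remodeler regions (points) by distance from the assigned start (x axis), beside all regions of the list (gray boxes from the 25th to the 75th percentile, black line the median, whiskers the 5th to 95th percentile). The widest points are the regions of Arid2 (3149 bp), Arid1b (2541 bp) and Chd1 (2418 bp).

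Of the 20 regions beyond 10 kb, 13 were intergenic, 5 lay in an intron of the gene they were assigned to, 1 in an intron of another gene and 1 in a UTR exon, and 12 of the 20 were upstream of the start used by the list. Their median GC content was 50.1% (39.9 to 68.5) and their CpG frequency 1.79 per 100 bp (0.290 to 10.2), against 46.8% and 1.25 over all distal regions. The 20 include the Chd9 regions at -23616 bp and 22998 bp, which held annotated starts of Gm6658 and Chd9. Regions within 1 kb had a median GC content of 63.8% (49.4 to 72.0) and 8.61 CpG per 100 bp (2.86 to 14.7), against 58.1% and 5.93 over all regions of this kind. In the central 300 bp, GGGCGG was found in 18 of the 22 start regions (81.8%, 61.5 to 92.7), against 69.2% of all, CCAAT in 8 (36.4%, against 31.7%), CCGGAAG in 3 (13.6%, against 16.2%), AAGATGGC in 2 (9.09%, against 4.36%), and GCGCATGC and TGACGTCA in 1 each (4.55%, against 4.03% and 2.72%). The match to GCGCATGC was in the Smarca4 region. Among the 20 distal regions, NGATAA and GGAATG were found in 5 each (25.0%, against 31.1% and 23.0%), GGTGTG in 3 (15%, against 16.1%) and CTAATG in 2 (10.0%, against 12.0%), these being Chd6 at -596308 bp and Chd9 at 22998 bp. The CTAATG match in the printed Chd9 stretch lies outside the central 300 bp and is not the match counted here. TAATTA and CACTTAA were found in 0 of 20, which allows a share of up to 16.1% by the Wilson interval, and all distal regions held them in 8.89% and 3.55%. For each motif the interval of the remodeler regions included the share of all regions of the same kind.

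The starts of the remodeler genes were CpG-rich whether or not a region was listed. Within 500 bp of the start, taking the annotated start with the most CpG, the median over the 43 genes was 9.79 CpG per 100 bp, against 4.6 over 22232 annotated coding genes. The 26 genes with a region over a start had a median of 10.1 (4.30 to 17.5) and the 17 without one a median of 8.29 (1.60 to 14.2), and these ranges overlapped over most of their length. The 17 are not the genes without an assigned region, since they include Chd4, Chd8, Dpf3 and Smarca1. Baz1a (14.2), Phf10 (13.9), Chd5 (13.5) and Bcl7a (11.5) had CpG-dense starts and no region within 10 kb. The low values of Dpf3 (1.60) and Chd8 (2.40) were measured at the annotated starts, which for Dpf3 is not the start used by the list.

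**Figure D4:**
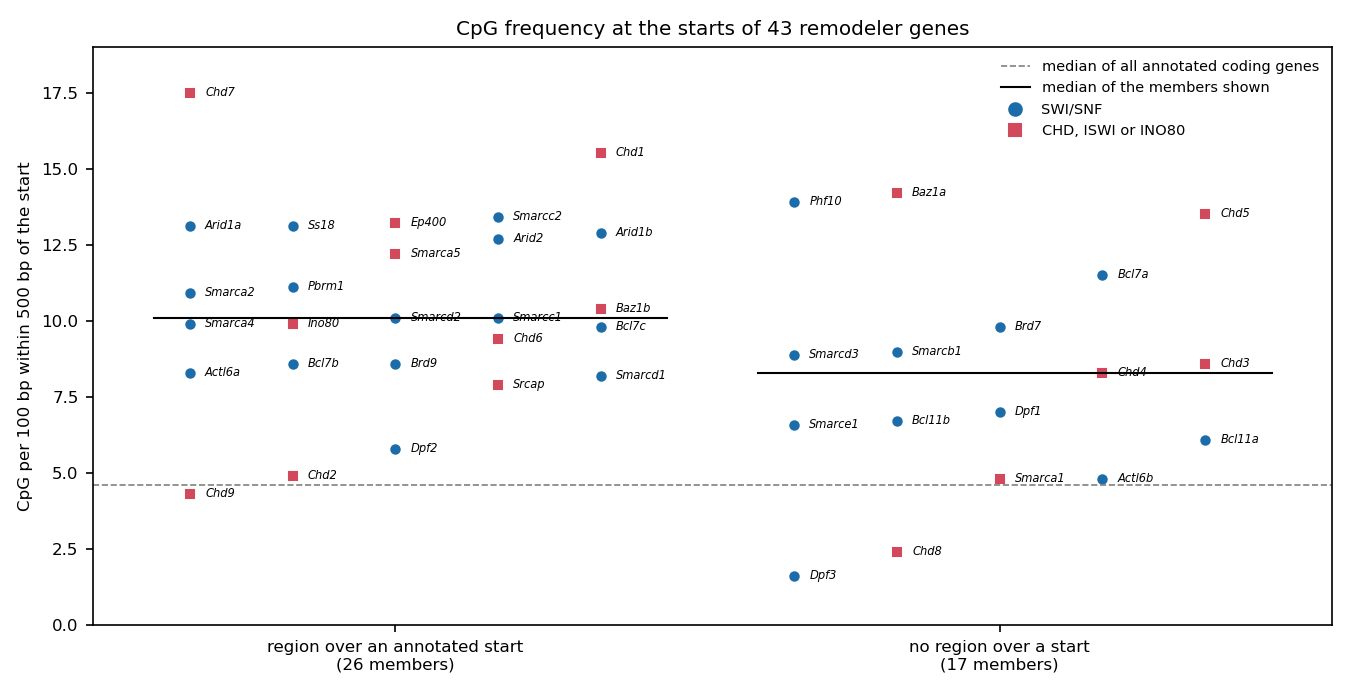
CpG per 100 bp within 500 bp of the annotated start (y axis) for each of the 43 genes, separated by whether a region covered an annotated start (x axis). Black lines are the medians of 26 and 17 genes (10.1 and 8.29) and the dashed line is the median of all annotated coding genes (4.6). CpG-dense starts occurred on both sides, with Chd7 highest among the covered and Baz1a highest among the others.

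Genes with a longer stretch around their starts tended to have more regions, among the remodelers as among all genes. The stretch in which a gene held the nearest coding start ranged from 3.64 kb for Smarcd1 to 1050 kb for Arid1b. The median stretch was 59.1 kb for SWI/SNF genes and 106.1 kb for the other families. The length of this stretch and the number of regions had a Spearman's rho of 0.38 and a Pearson's r of 0.42 (on log2 scales) over the 43 genes, and 0.38 and 0.41 over 19101 coding genes. These are descriptions across genes of the same list, which share its depth. The stretch can include the gene body. If regions were assigned by the nearest start, a longer stretch takes in more of them by construction. Of the 9 remodeler genes with at least 300 kb, 4 had 4 or more regions (Arid1b, Chd6, Chd7 and Chd9) and 2 had none (Bcl11a and Bcl11b). Among 1696 coding genes with a stretch of at least that length, 20% had 4 or more regions and 20.9% had none. Their mean was 2.14 regions, against 2.78 for the 9.

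Lists of 61 further genes were also counted, holding other subunits of these complexes and 13 SNF2-type ATPase genes listed apart from them. Of the 61, 44 had a region (72.1%, against 49.3% of coding genes), 43 within 1 kb (70.5%, against 40.6%). Those named here beyond the 43 were named after their values were seen. Of 11 NuRD subunit genes, 9 had a region, all with at least 1 within 1 kb, and Mbd3 and Gatad2b had none. Of the 13 further SNF2-type ATPase genes, 12 had a region within 1 kb (92.3%, the highest share of these lists), and Rad54l2 had none. Of 26 other INO80, SRCAP and TIP60 subunit genes 17 had a region, and of 7 other ISWI subunit genes 4. Of 4 further SWI/SNF subunit genes, Actb and Ss18l1 had a region at the start, and Bicra and Bicral had none.

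The list as a whole held 17432 rows, and 204 of its regions were written more than once. It gave a region to 6 of 12 regulators of heart and pharyngeal mesoderm, with the most at Isl1 (9 regions), and none to Nkx2-5, Tbx5, Tbx1, Gata6, Hand1 or Tcf21. Of 7 cardiomyocyte contractile genes 2 had a region, of 5 endothelial genes 3, of 5 neural genes 4, of 4 foregut endoderm genes 2, of 4 blood genes 1 and of 3 neural crest genes 1. Over all 40 marker genes, 19 had a region (47.5%), against 49.3% of coding genes, so these counts do not tell the tissue. The tissue was dissected and not sorted, so which cells a region was open in cannot be told apart.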

How the data were processed

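The authors made ATAC-Seq libraries from E8.75 pharyngeal mesoderm and hearts, 3 per genotype. Reads were mapped to mm9 with bowtie2, duplicates were removed with Picard 1.136, peaks were called with MACS14 with a fixed shift size, blacklisted peaks were removed, and regions common to the 3 wild-type libraries were taken with bedtools 2.15. A fixed shift widens regions and no Tn5 offset is stated, so edges are not cut sites. The deposited list gives positions in bp, a signed TSS distance of each region center, a transcript and a symbol, and no column of values was left unmapped (0 columns). The tool that assigned genes is not given for these regions in the sources used here.

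Rows with equal coordinates were counted once. Regions were assigned to a gene by the listed symbol, and compared with 21031 RefSeq coding genes (GRCm38.p6, names and types only). Starts, exons and sequence came from NCBIM37 with GENCODE, in which 91.5% of the 47 listed distances (43) matched a start within 100 bp. Of Chd9, Smarca2 and Dpf3, 4 regions did not. Shares have 95% Wilson intervals, motifs were searched in the central 300 bp, and CpG within 500 bp of starts. Printed stretches were taken nearest to the region center where no exon was annotated, a departure from the planned exact center. The details of 1 region are not reported here. No test was made, since the list has no value per library. Alternatives changed the regions counted, windows, starts and members. The members and gene lists were chosen with earlier results of these data known. All 43 genes were accounted for, in full those with 3 or more regions, the 3 widest, a region beyond 10 kb or none, and Smarca4, Arid1a, Pbrm1, Dpf3 and Smarcd3. Functions were tested on simulated data, with Python 3.11.15, numpy 2.4.6 and pandas 2.3.3.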

Additional observations from a re-analysis of the deposited data

How the results depend on the processing

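The 4 shares of remodeler genes were recomputed under 19 alternatives, and each value stayed within the 95% interval of the reported share. These intervals are wide, so staying within them is a weak check. Merging regions or counting repeated rows could not change whether a gene had a region. The share with an assigned region ran from 51.2% (no region narrower than the median of 1123 bp) to 63.4% (without Bcl11a and Bcl11b). The share within 1 kb ran from 41.9% (the same wider regions) to 58.1% (any annotated start). The difference between SWI/SNF and the other families in the share with an assigned region was -23.1 percentage points, and -3.2 when any region over the gene body or start was counted, whatever gene it named. That alternative also left 17 genes without a region, but added Smarcc2, Brd9, Bcl7c and Srcap and dropped Chd4, Chd8, Dpf3 and Smarca1. For the share within 1 kb the sign of the difference between the families was not stable, at -1.9 percentage points as reported, 1.9 with a window of 2 kb and 2.0 without Bcl11a and Bcl11b. For the share beyond 10 kb it was -23.8 percentage points (interval -48.8 to -0.5) as reported and -30.1 (-54.5 to -5.3) at 5 kb, and the interval included 0 at 25 kb and among the wider regions (-17.6 each, -42.7 to 4.2) and without Bcl11a and Bcl11b (-23.2, -48.3 to 0.8). Of 24 motif shares with windows of 200 or 500 bp, 20 stayed within the reported interval. No regions overlapped, so merging joined 0. The median width at starts was 1327.5 bp, 1328 bp with a window of 2 kb, and 1341.5 bp when the widest region of each gene was taken at any distance. No paired analysis was possible because the list is common to the 3 wild-type libraries and gives no value per library, so no library could be left out either. Sequencing depth is unknown, and a region missed in 1 library is absent from the list.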

Other observations

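Several regions of the remodeler genes lay in pairs or over starts of neighboring genes. The Smarcc1 body held the center of a further region, which the list assigned to Cspg5, and the Chd6 body held one assigned to Emilin3. The region of Smarcd1 held a start of Gm17349 as well as its own. Between the paralogs Smarca2 and Smarca4, the gene with 2 accessible starts was Smarca2, whose stretch of nearest coding start was 680 kb, against 75.2 kb for Smarca4.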
